A study of Homo sapiens with 6 samples.

Results

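B2M, HLA-B, HLA-C and HLA-E were followed through 5 matrices of unique molecular identifier (UMI) counts from single cells. The members were all human transcripts that GENCODE assigns to these 4 genes, matched by identifier without its version. They came to 16 transcripts (7 of B2M, 6 of HLA-C, 2 of HLA-B and 1 of HLA-E) of 46484 human transcripts stored, and to 4 of 12472 named human genes. Human cells labelled JJN3, a myeloma line, were mixed with mouse cells labelled 5TGMG1 (5TGM1 in the study's text), also myeloma, and no group carried a treatment other than the number of PCR cycles. Both 10X libraries came from 1 capture of a 50:50 mix with monomer UMIs, and were labelled 2000 cells and 30 or 35 cycles. Cycle numbers here follow the sample labels. For 10X the study's methods describe a first PCR and then 20 or 25 further cycles, while its results give 20 or 25 in total. The Drop-seq libraries held a 20:80 mix of human and mouse cells on trimer barcoded beads and were labelled 25 cycles (1000 cells), 30 cycles and 35 cycles (500 cells each). A sixth sample held read numbers only and was not used here.

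Class I molecules sit on the surface of nearly all nucleated cells and show peptides from inside the cell to CD8 T cells. Each is a heavy chain, such as the classical chains encoded by HLA-B and HLA-C, held to the small invariant chain B2M. HLA-E is a non-classical heavy chain that binds leader peptides of other class I molecules and is read by the NKG2A receptor of natural killer cells. Without B2M the heavy chains do not reach the surface in stable form, and tumour cells that lose B2M lose class I presentation as a whole.

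The heavy chain genes lie on chromosome 6 of hg38, in GENCODE release 44 at chr6:31353872-31367067 for HLA-B and chr6:31268749-31272130 for HLA-C, both on the minus strand, and at chr6:30489509-30494194 for HLA-E on the plus strand. B2M lies apart from them on chromosome 15, at chr15:44711358-44718851 on the plus strand. To show how alike the heavy chains are, the start of exon 4 is shown for 1 coding transcript of each. Exon 4 encodes the immunoglobulin-like domain that touches B2M. Capitals mark bases that differ from HLA-B.
HLA-B, exon 4 of ENST00000412585, chr6:31355503-31355592, minus strand: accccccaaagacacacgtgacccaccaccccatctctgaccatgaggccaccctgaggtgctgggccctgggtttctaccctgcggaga
HLA-C, exon 4 of ENST00000376228, chr6:31270396-31270485, minus strand: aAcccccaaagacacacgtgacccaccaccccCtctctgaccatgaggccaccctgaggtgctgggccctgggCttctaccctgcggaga
HLA-E, exon 4 of ENST00000376630, chr6:30491137-30491226, plus strand: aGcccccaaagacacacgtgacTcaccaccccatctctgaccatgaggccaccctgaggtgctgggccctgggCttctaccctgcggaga
In this stretch HLA-C and HLA-E each shared 87 of 90 bases with HLA-B. Over the whole coding sequence, HLA-B and HLA-C were identical at 91.5% of aligned bases, HLA-B and HLA-E at 85.6%, and HLA-C and HLA-E at 85.0%. Counts of single heavy chains are therefore uncertain where reads could be split between them, and their sum is given beside them.

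Each matrix was 1 library, so no difference below has a replicate check and no p-value is given. Barcodes were ranked by total count and taken as cells up to the labelled number of cells, and a cell was human when at least 90% of its counts were on human transcripts. This left 1006 and 911 human cells in 10X at 30 and 35 cycles, with a median of 118 and 171 counts per cell. Drop-seq had 251, 166 and 165 human cells at 25, 30 and 35 cycles, with medians of 271, 243 and 352 counts. Levels are given as CPM, the counts of a gene scaled to the human counts in human cells of its library. These totals ran from 67144 to 199308 counts. All intervals are exact 95% intervals for counting error only. Those of levels, ratios and transcript shares treat each stored count as independent. Counts came in blocks, however: in 10X at 30 cycles 33 of the 36 B2M entries in human cells stood at 2. These intervals may therefore be too narrow. The smallest stored value was 2 in both 10X libraries, 1 in the 25-cycle Drop-seq library and 3 in the others, so a gene that is absent from a cell may have been below that value. The labelled human line did not match its markers on both platforms. In 10X human cells all 10 genes of a plasma cell list were stored, with 6681 and 4400 CPM in sum, against 2 and 1 of 15 T cell genes with 24.7 and 10.0 CPM (CD28 and LAT, both at 0 in Drop-seq human cells). In Drop-seq human cells the T cell list held 10, 6 and 7 stored genes and 3063 to 3560 CPM, while MZB1 was the only plasma cell gene stored, at 74.5 to 130 CPM. The study's text names JJN3 in its single-cell methods and Jurkat, a T cell leukaemia line, under cell culture and in the legend to its 10X experiment. Platform and human cell cannot be told apart here.

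B2M was the main transcript of the group and was stored in human cells of all 5 libraries. In 10X it had 75 counts at 30 cycles, or 463 CPM (364 to 580), and 181 counts at 35 cycles, or 908 CPM (781 to 1051). In Drop-seq it had 79 counts at 25 cycles, or 685 CPM (543 to 854), 45 counts at 30 cycles, or 670 CPM (489 to 897), and 60 counts at 35 cycles, or 642 CPM (490 to 826). As stored, the order from high to low was 10X at 35 cycles, Drop-seq at 25, 30 and 35 cycles, and 10X at 30 cycles. The Drop-seq values lay within each other's intervals, and the interval of 10X at 35 cycles lay above that of 10X at 30 cycles, while neighbours in this order overlapped. The order between platforms depends on the smallest stored value, which differed between libraries. With values below 3 left out, 10X at 35 cycles was at 603 CPM, below Drop-seq at 734, 670 and 642 CPM.

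On the identifiers that GENCODE names, the heavy chains were rare beside their partner chain. Identifiers without a name, with any alternate haplotypes among them, were not counted. They held 6.48% to 7.91% of the human counts in human cells, and how much of this is heavy chain is not known. HLA-B had 14 and 18 counts in the 10X libraries (86.4 and 90.3 CPM) and 9, 3 and 0 counts in Drop-seq at 25, 30 and 35 cycles. Its interval in Drop-seq at 35 cycles ended at 39.5 CPM, below the lower ends of 47.3 and 53.5 CPM in 10X, but every HLA-B entry in 10X was under 3, the smallest value that the Drop-seq file stores. HLA-E was at 0 in 10X at 30 cycles, where 3 counts would have been 18.5 CPM, and had 4, 2, 4 and 5 counts in 10X at 35 cycles and Drop-seq at 25, 30 and 35 cycles. HLA-C was found in human cells of 1 library only, 10X at 35 cycles, where a single cell held 4 counts spread evenly over a coding and a nonsense-mediated decay transcript. With the same value on both transcripts, the same reads may have been counted on each. Together the 3 HLA members had 14, 26, 11, 7 and 5 counts in the order of the libraries above, which is 53.5 to 130 CPM with overlapping intervals. These counts came from 7 and 11 human cells in 10X and from 3, 2 and 1 in Drop-seq, so the order of the libraries in single heavy chains rests on few cells.

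**Figure D1:**
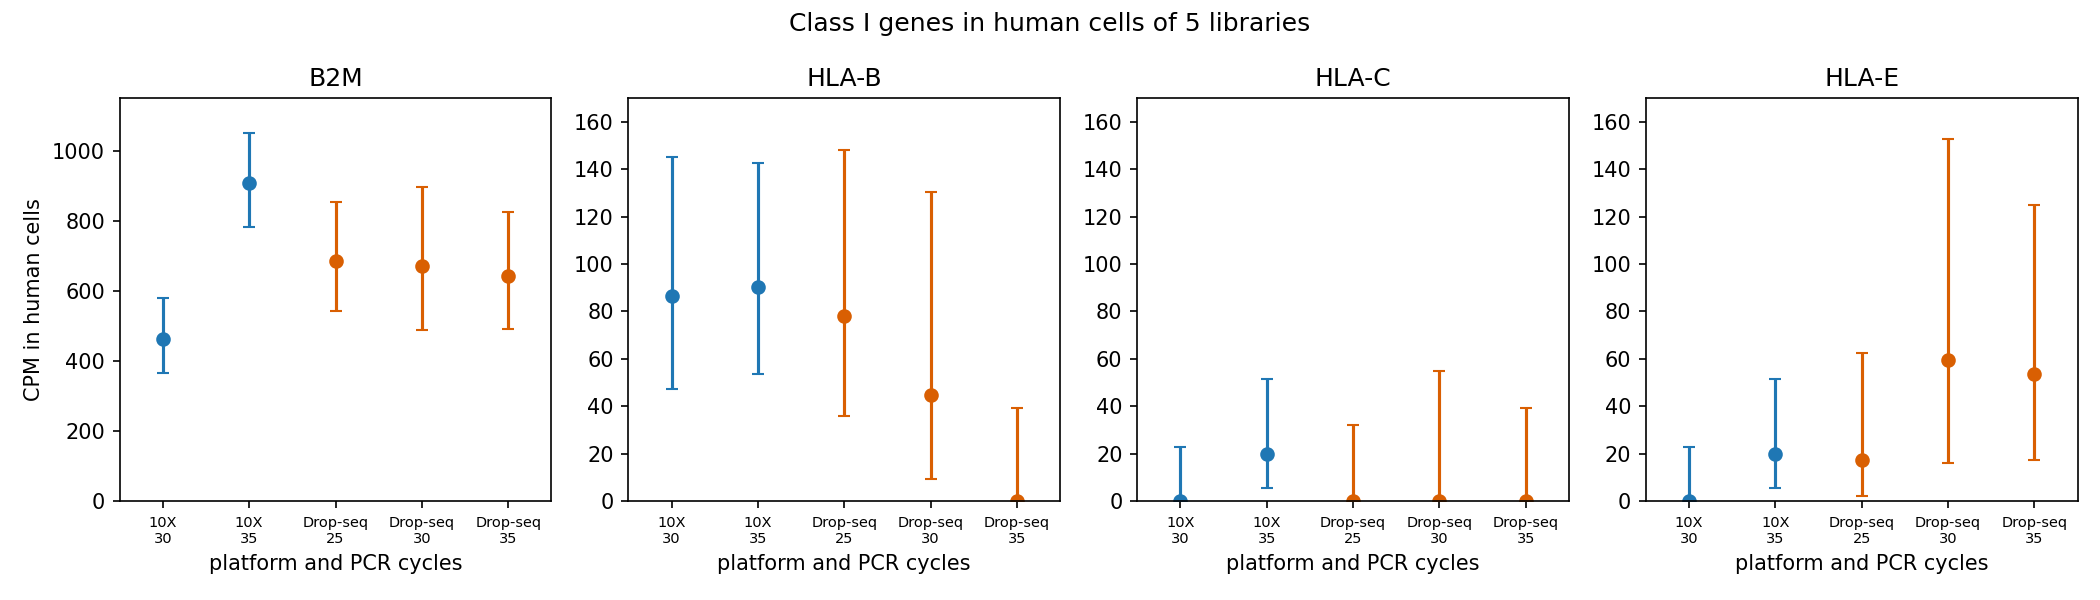
CPM in human cells (vertical axes, from 0) for B2M, HLA-B, HLA-C and HLA-E in each library (platform and PCR cycles on the horizontal axes). Points are the level of 1 library and bars are exact 95% Poisson intervals. B2M spans 463 to 908 CPM, and the HLA panels share a smaller axis. HLA-B at 35 cycles in Drop-seq (0 counts) is the one HLA value whose interval lies below those of both 10X libraries. Every HLA-B entry in 10X was under 3, the smallest value that this Drop-seq file stores, so the 2 platforms cannot be compared here.

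B2M had 5.36 counts for each HLA count in 10X at 30 cycles (interval 3.003 to 10.3) and 6.96 (4.60 to 10.9) at 35 cycles. In Drop-seq the ratio was 7.18 (3.80 to 14.97), 6.43 (2.88 to 16.9) and 12 (4.87 to 38.3) at 25, 30 and 35 cycles. All 5 intervals overlapped, so no difference in the balance of light and heavy chain was detectable in stored counts at this depth. Every HLA entry in 10X human cells stood at the smallest stored value of 2, and Drop-seq at 30 and 35 cycles stores no value under 3. How much of either chain lay below these values is not known, so the ratios may differ from those in the cells. Scaled by transcript length, B2M had 483 to 957 CPM per kilobase and HLA-B 0 to 56.3. Its main transcript is 943 bases long and that of HLA-B 1536 bases.

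Few cells held a B2M entry at all. In 10X these were 36 of 1006 human cells (3.58%, 2.52 to 4.92) at 30 cycles and 79 of 911 (8.67%, 6.93 to 10.7) at 35 cycles. In Drop-seq they were 21 of 251 (8.37%, 5.25 to 12.5) at 25 cycles, 8 of 166 (4.82%, 2.10 to 9.27) at 30 and 9 of 165 (5.45%, 2.52 to 10.1) at 35. The 10X shares did not overlap between cycle numbers, whereas all 3 Drop-seq shares did. The 25-cycle share includes values of 1 and 2, which the other Drop-seq files do not store. With values below 3 left out it was 9 of 251 (3.59%, 1.65 to 6.70). Where a 10X cell held B2M, it mostly held the smallest value that the file stores, which was the case in 33 of 36 cells at 30 cycles and 64 of 79 at 35 cycles, and the highest cell had 3 and 5 counts. The median cell with B2M held 2 counts in 10X at either cycle number, where values under 2 are not stored. It also held 2 in the 25-cycle Drop-seq library, which stores values of 1, and there 8 of 21 cells held 1. The median was 6 at 30 cycles and 5 at 35 cycles in Drop-seq, where values under 3 are not stored. Medians of files with unlike smallest values cannot be set against each other. The 8 cells at 30 cycles had 3 counts (3 cells), 5 (1 cell), 7 (2 cells), 8 (1 cell) and 9 (1 cell). At 35 cycles a single cell with 17 counts carried 28.3% of all B2M counts, and at 25 cycles a cell with 19 carried 24.1%, so the Drop-seq levels rest on few cells.

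Mouse cells, which have no human B2M, were the barcodes with at least 90% of their counts on mouse transcripts. Barcodes that met neither rule were classed as mixed and left out. The rule itself keeps human genes low in mouse cells, so their shares are not an independent measure of background. No mouse cell held B2M in 10X (0 of 806 and 0 of 881, which at 3 cells of the total allows up to 0.372% and 0.341%, with exact upper ends of 0.457% and 0.418%) or in Drop-seq at 30 cycles (0 of 291, up to 1.03%, exact upper end 1.26%). At 35 cycles it was stored in 1 of 309 (0.324%). In Drop-seq at 25 cycles 15 of 590 mouse cells (2.54%, 1.43 to 4.16) held it, below the human share of 8.37% at similar depth (median 271 counts in human cells). HLA-B, HLA-C and HLA-E were stored in no mouse cell of any library.

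**Figure D2:**
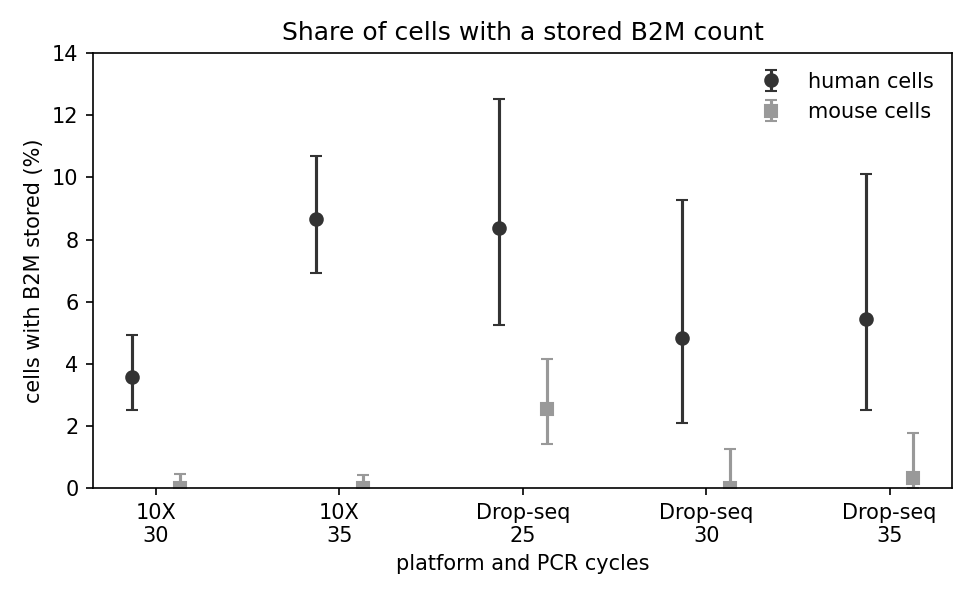
Percent of human cells (circles) and mouse cells (squares) with a stored B2M count in each library, with exact 95% Clopper-Pearson intervals. Human shares run from 3.58% to 8.67% and lie above the mouse shares of 0 to 2.54%, and the interval of the mouse share at 25 cycles stays below that of the human share. Cells were assigned by their share of human counts, which itself keeps human genes low in mouse cells. The smallest stored value differs between libraries.

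With each cell thinned to 200 counts, which left out 798 and 585 of the human 10X cells, B2M was stored in 7.21% (4.09 to 11.6) at 30 cycles and 13.2% (9.71 to 17.4) at 35 cycles, and these intervals overlapped. Thinned to 100 counts, with 348 cells left out at 30 cycles and 0 at 35, the shares were 3.34% (2.11 to 5.02) and 6.15% (4.68 to 7.91). In Drop-seq the shares at 200 counts were 4.62%, 4.55% and 4.79% at 25, 30 and 35 cycles, with 78, 56 and 19 human cells left out. These shares differed by less than their intervals. Both 10X libraries were amplified from the same capture and 722 barcodes were human cells in both. Stored barcodes had 10 bases, fewer than either method gives, so different cells may share one. Of these, 32 held B2M at 30 cycles, 76 at 35 cycles and 9 in both, which is 28.1% of the first set and 11.8% of the second. In Drop-seq 145 barcodes were human cells at 30 and 35 cycles, and 6 held B2M in both, of 8 and 9. The 25-cycle Drop-seq library shared 135 human cell barcodes with the 30-cycle and 133 with the 35-cycle library. Among the first, 17 held B2M at 25 cycles, 7 at 30 cycles and 6 in both (35.3% and 85.7%), and among the second 17, 8 and 8 (47.1% and 100%).

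For the effect of cycle number, genes with at least 100 counts over both libraries were compared, and a gene was called when its CPM differed at least 2-fold. In 10X B2M had a log2 ratio of 35 over 30 cycles of 0.97 (0.58 to 1.38), a 1.95-fold higher CPM (1.49 to 2.60), and was not called, while 118 of 391 genes tested were called (30.2%). Of these 40 were higher and 78 lower at 35 cycles, and with scaling by the median of ratios 57 were higher and 55 lower. The median gene was at a log2 ratio of -0.19, and B2M lay above 349 of the 391 genes (89.3%). B2M stood just below the 2-fold line and passed it under 3 alternatives, at 1.16 with the median of ratios, 1.05 without immunoglobulin transcripts and 1.62 with values below 3 left out, when it had 51 counts against 9. Depth moved with it, while the smallest stored value was 2 in both. The 35-cycle library was thinned in expectation, with 73.6% kept and values then under 2 dropped, and the ratio was 0.90. This left 122455 human counts in 911 cells against 161961 in 1006 cells at 30 cycles. Depth thus fell below that of the 30-cycle library and was not matched. None of the HLA members reached 100 counts. HLA-B had a log2 ratio of 0.05 (-1.03 to 1.18) and the 3 HLA members together one of 0.57 (-0.40 to 1.64), both with intervals across 0.

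In Drop-seq B2M had a log2 ratio of 35 over 30 cycles of -0.07 (-0.64 to 0.53), at 60 against 45 counts, and was not called. In this comparison 6 of 304 genes were called (1.97%), and the median gene was at -0.05. HLA-E, with 5 and 4 counts, was at -0.19 (-2.37 to 2.18), and the HLA sum at -0.93 (-2.96 to 0.91). Drop-seq at 30 over 25 cycles, with values below 3 left out of both, gave B2M 45 against 59 counts and a log2 ratio of -0.13 (-0.72 to 0.45), again not called, beside 55 of 272 genes (20.2%) with a median of -0.21. Here 17 genes were higher and 38 lower, or 23 and 27 with the median of ratios. The HLA sum was 7 counts on each side (0.26, -1.48 to 2.0). These libraries also differ in sequencing kit and labelled number of cells, whose part was not tested.

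**Figure D3:**
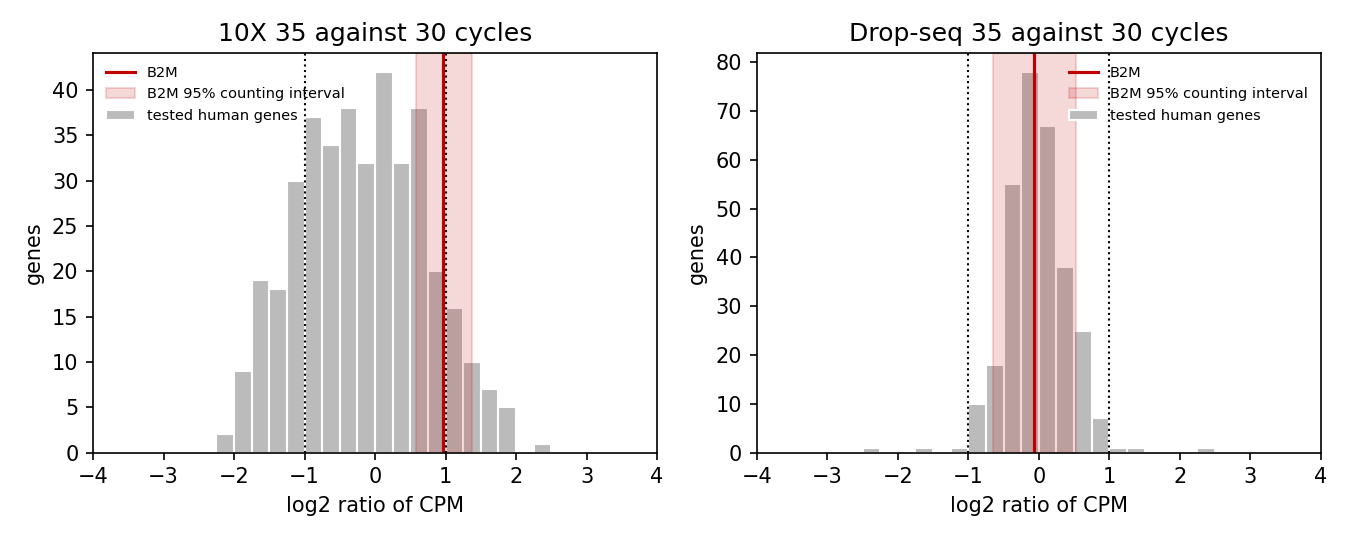
Histograms of the log2 ratio of CPM at 35 over 30 cycles for all human genes tested in 10X (391 genes) and Drop-seq (304 genes), in bins of equal width. The red line is B2M with its 95% counting interval shaded, and dotted lines mark 2-fold; B2M lies at 0.97, to the right of most genes in 10X, and at -0.07 amid the narrower spread in Drop-seq.

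Between platforms only values of at least 3 were used on both sides. At 30 cycles B2M then had 9 counts in 10X and 45 in Drop-seq (187 against 670 CPM), a log2 ratio of 10X over Drop-seq of -1.78 (-3.06 to -0.79) that turned to 0.82 with the median of ratios. The 54 counts were under the minimum of 100, so B2M was not among the 145 genes tested, of which 131 (90.3%) were called and whose median was -2.59. At 35 cycles B2M had 51 and 60 counts (603 against 642 CPM) and a log2 ratio of -0.09 (-0.66 to 0.47), which became 3.58 with the median of ratios, and was not called. It was thus among the 18 of 199 genes that stayed within 2-fold, while 181 (91%) were called and the median gene was at -3.67. The called genes split into 43 higher and 88 lower in 10X at 30 cycles and 50 and 131 at 35 cycles, against 59 and 63, and 88 and 87, with the median of ratios. The platforms differ in most tested genes, and the direction for B2M depends on the scaling. The 3 HLA members had 0 counts in 10X on this scale, against 7 and 5 in Drop-seq, since no HLA entry in 10X reached 3.

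Over the 5 libraries, with values below 3 left out, B2M had 187, 603, 734, 670 and 642 CPM. The 10X library at 30 cycles was the low one, and the other 4 lay between 603 and 734. The HLA members were at 0 in some libraries and have no such profile.

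B2M counts fell mainly on the coding transcript ENST00000648006 (4 exons, chr15:44711517-44718145), with 97.3% and 98.9% of the gene in 10X human cells and 89.9%, 91.1% and 81.7% in Drop-seq at 25, 30 and 35 cycles. Most of the rest lay on the retained intron transcript ENST00000623550 (1 exon of 2329 bases, chr15:44715817-44718145). It took 2 of 75 (2.67%, 0.325 to 9.30) and 2 of 181 (1.10%, 0.134 to 3.93) B2M counts in 10X, against 7 of 79 (8.86%, 3.64 to 17.4), 4 of 45 (8.89%, 2.48 to 21.2) and 11 of 60 (18.3%, 9.52 to 30.4) in Drop-seq. Over all barcodes the shares were 3.39% and 0.658% in 10X and 11.7%, 7% and 13.02% in Drop-seq. In Drop-seq 35 of its 40 entries stood in a barcode that also held the coding transcript, and 28 with the same value, so reads may have been counted on both. On the highest transcript per cell alone, the log2 ratio of B2M at 35 over 30 cycles was 0.95 for 10X, and for Drop-seq it was -0.22 (49 against 41 counts).

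The same caution holds for identifiers that carry no GENCODE name. ENST00000544417, ENST00000617605 and ENST00000619603 had the same value as B2M in the same barcode in 50% to 94.9% of entries in all 5 libraries, and ENST00000425848 did so with HLA-B in both 10X libraries (83.3% and 91.7%). In the 25-cycle Drop-seq library ENST00000424832 did so with HLA-C in 50% of entries, and ENST00000415649, ENST00000425603 and ENST00000444683 with HLA-E in 57.1% to 76.2%. None of these identifiers was added to the members, and no named gene outside the 4 shared entries with a member in this way.

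The machinery around class I was described by a list of 22 genes, of which 5 and 11 were stored in 10X human cells and 8, 5 and 6 in Drop-seq. CALR, the chaperone calreticulin that holds the heavy chain with B2M while a peptide is loaded, had 71 and 90 counts in 10X (438 and 452 CPM) and 15, 8 and 14 in Drop-seq (119 to 150 CPM). CANX, the membrane chaperone calnexin that receives the new heavy chain, had 119 and 97 counts in 10X and 4, 0 and 0 in Drop-seq. PDIA3, the disulphide isomerase of the loading complex, had 4 and 30 counts in 10X and 18, 0 and 6 in Drop-seq. Both chaperones were thus at a higher CPM in 10X as stored.

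The proteasome activator PA28 showed the opposite order. PSME2, its beta chain, had 0 and 8 counts in 10X and 76, 51 and 34 in Drop-seq (659, 760 and 364 CPM), and PSME1, its alpha chain, 0 and 4 against 37, 15 and 26. The immunoproteasome subunits PSMB8 and PSMB9 were at 0 in 10X and had at most 6 counts in Drop-seq. TAP1 and TAP2, the peptide transporter, HLA-F, HLA-G and NLRC5, the class I transactivator, were at 0 in human cells of all 5 libraries, and IRF1, an interferon-response factor, had 15 and 17 counts in 10X and 0 in Drop-seq.

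Of the 22 genes, 2 passed the count minimum in 10X for 35 over 30 cycles, CALR at a log2 ratio of 0.04 (-0.42 to 0.51) and CANX at -0.59 (-1.0 to -0.20), and neither was called. None passed it in Drop-seq for 35 over 30 cycles, and for 30 over 25 cycles PSME2 did, at 0.29 (-0.30 to 0.88), not called. No list gene passed it between platforms. With values below 3 left out, PSME2 had 0 counts in 10X against 51 and 34 in Drop-seq. With 3 counts put in place of 0, it was 12.2-fold higher in Drop-seq at 30 cycles and 10.3-fold at 35 cycles. Values under 3 were left out cell by cell, so these folds are not lower bounds. As stored, PSME2 had 8 counts (40.1 CPM) in 10X at 35 cycles. On the same footing CANX had 33 and 21 counts in 10X against 0, which was 15.4-fold and 7.74-fold higher in 10X.

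Of 13 class II genes, which present peptides from outside the cell, 3 were stored in human cells of each 10X library and 0 in those of Drop-seq. Nearly all of these counts were on CD74. CD74, the invariant chain that guides class II molecules, had 158 and 338 counts in 10X (976 and 1696 CPM), above B2M in both, and 0 in Drop-seq. The other class II genes in 10X were HLA-DRA, with 2 and 2 counts, HLA-DPA1, with 0 and 2, and CIITA, with 5 and 0. With values below 3 left out CD74 had 26 and 76 counts in 10X against 0 in Drop-seq. With 3 counts put in place of 0, CD74 was 12.1-fold and 28.0-fold higher in 10X, which again are not lower bounds. Its log2 ratio of 35 over 30 cycles in 10X was 0.80 (0.52 to 1.08), near that of B2M, and was not called. The split in CD74 runs along the same line as the plasma cell and T cell lists above, whose part in it was not tested.

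**Figure D4:**
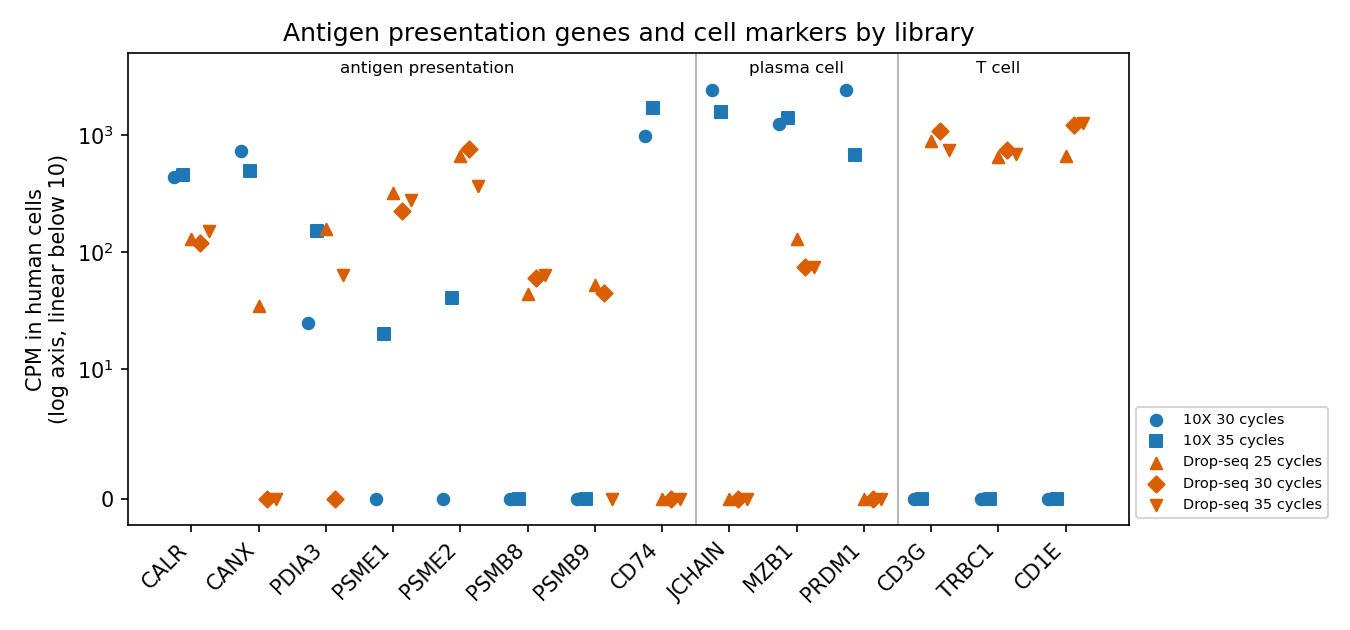
CPM in human cells (vertical axis, logarithmic and linear below 10) for genes of antigen presentation, plasma cell markers and T cell markers, with 1 symbol for each library and no error bars. CALR, CANX, CD74 and the 3 plasma cell genes drawn sit higher in 10X (blue), whereas PSME1, PSME2, CD3G, TRBC1 and CD1E sit higher in Drop-seq (orange).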

How the data were processed

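The deposited matrices held UMI counts per barcode and Ensembl transcript, not normalized. According to their methods, the authors base called reads with Guppy, aligned them by minimap2 against transcripts of hg38 and mm10, and counted UMIs. Whether the Drop-seq counts were made as monomers or homotrimers, and the filter behind the smallest stored values, are not given in the sources used here. Of 46484 human identifiers, 42740 (91.9%) matched GENCODE release 44. Alternate haplotype identifiers are not named there. Counts were summed over the transcripts of a gene and the human cells of a library. Log2 ratios of CPM used a pseudocount of 0.5, with exact conditional binomial intervals. Doublets were not called, and mixed barcodes were left out. Named genes were the 4 members, list genes with at least 100 counts in a comparison and the 3 genes most like a member, which are not reported here; the other list genes, the minor transcripts and the marker genes named were chosen after their values were seen. Members and lists were chosen with earlier results of these data known. Calculations used Python 3.11.15, numpy 2.4.6, pandas 2.3.3, scipy 1.17.1 and matplotlib 3.10.9, and were tested on simulated data. Alternatives varied cells, purity, scaling, transcript summing, the pseudocount, the smallest value and the count minimum.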

Additional observations from a re-analysis of the deposited data

Results flagged for a closer look

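Results on either side of 0 under the same contrast, with the difference itself not tested, were the log2 ratios of 35 over 30 cycles of B2M, 0.97 in 10X and -0.067 in Drop-seq, and of the summed HLA members, 0.57 in 10X and -0.93 in Drop-seq. The Drop-seq value of B2M and both HLA values have counting intervals that include 0.

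Member counts were also stored in barcodes outside the cells, which were left out of all levels and ratios above and entered only the values given over all barcodes and the shares of equal entries. B2M had 33 and 100 counts there in 10X at 30 and 35 cycles, and 295, 55 and 103 in Drop-seq at 25, 30 and 35 cycles. HLA-B had 8 and 6 counts in 10X and 10 in Drop-seq at 25 cycles. HLA-C had 25 counts in Drop-seq at 25 cycles, in 7 barcodes, and 6 at 30 cycles in 1 barcode, while no Drop-seq human cell held it. At 25 cycles these lay on 6 transcripts, and ENST00000376237 had the same value as ENST00000376228 in 100% of 6 entries. At 30 cycles ENST00000466892 and ENST00000487245 had 3 counts each. The same reads may have been counted more than once, so these HLA-C counts cannot be set against those of HLA-E. HLA-E had 20 counts in 19 barcodes at 25 cycles.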

How the results depend on the processing

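The log2 ratio of B2M kept its sign under all alternatives for 10X at 35 over 30 cycles (0.90 to 1.62, the highest with values below 3 left out). It ranged from -0.22 to 0.08 for Drop-seq at 35 over 30 cycles and from -0.31 to 0.12 at 30 over 25 cycles. For 10X over Drop-seq it ranged from -2.04 to 0.82 at 30 cycles and -0.13 to 3.58 at 35 cycles, the upper ends with the median of ratios, and with values as stored it was -0.54 and 0.49. Genes past 2-fold in 10X at 35 over 30 cycles numbered 74 with 0.5 of the labelled number of barcodes as cells, 62 with the highest transcript per cell, 44 with values below 3 left out, and 281 and 43 with count minimums of 50 and 200. In Drop-seq at 35 over 30 cycles they numbered 18 with all barcodes of at least 100 counts as cells, 0 with the highest transcript, 3 with shared barcodes, 3 with depth thinned, and 53 and 0 with minimums of 50 and 200. For 10X over Drop-seq at 30 cycles they numbered 65 with the highest transcript, 239 as stored, and 298 and 64 with minimums of 50 and 200, and at 35 cycles 76, 308, 422 and 89 in that order. In Drop-seq at 30 over 25 cycles they numbered 5 with the highest transcript and 182 and 16 with these minimums. The cause was not tested. Thinning was chosen after seeing the data. Alternate haplotype identifiers were not run apart, because the annotation names the primary assembly only. No paired analysis was possible because each group held 1 library. With 0 to 26 HLA counts per library, depth limits all statements on the heavy chains.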
